A study of Mus musculus with 6 samples.

Results

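Transcripts of 10 goblet cell and antimicrobial genes were measured in RNA-seq libraries of regulatory T cells (Tregs, CD4 T cells that restrain immune responses) from the inflamed mouse colon. They were chosen by name (Muc2, Zg16, Fcgbp, Clca1, Agr2, Tff3, Spink4, Reg3b, Reg3g and Retnlb), and all 10 were found among the 24537 rows of the table, 1 row each. They cover the mucus gel and its assembly, small secreted peptides, and proteins that act on bacteria. There were 6 libraries, 3 labelled REV-ERB KO and 3 labelled REV-ERB WT (n = 3 per group throughout), and KO 1 or WT 2 below stands for the library with that label and replicate number. Mice of both groups had colitis from TNBS (a hapten), with 150 µl at 1% on the skin and 7 days later 100 µl at 2.5% by the rectal route. The sources used here do not give the receptor gene or exons deleted, the promoter of any Cre, the strain, the age, the sorting of the cells or any pooling of animals. The design asks how the transcripts of colon Tregs in colitis differ between the 2 genotypes.

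Goblet cells are the secretory cells of the intestinal epithelium that make and release mucus. In the colon the mucus is a gel built on the mucin MUC2, with an inner layer that keeps bacteria away from the epithelium, and goblet cells also secrete trefoil and lectin-like proteins into it. REG3 lectins are made by epithelial cells during infection and inflammation under the cytokine IL-22, and RELMβ (Retnlb) is made by goblet cells under the type 2 cytokines IL-4 and IL-13. None of the 10 genes is a marker of Tregs.

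All 10 genes had a higher mean in the KO-labelled libraries than in the WT-labelled ones, by a median of 1.06 on the log2(TPM + 1) scale, and none passed the threshold. TPM is the deposited transcript abundance scaled for length and library size. Genes were tested with limma (moderated, two-sided) over all 13211 genes that reached 1 TPM in 3 or more libraries, with p adjusted by the Benjamini-Hochberg method and a threshold of 0.05. All 10 members were among the genes tested, and 0 passed, as did 0 of all genes (0%). At an unadjusted p under 0.05, 4 members were higher (Retnlb, Tff3, Clca1 and Agr2), against 7.8% of all genes tested. In 3 of the 10 (Agr2, Tff3 and Retnlb) every library labelled KO lay above every library labelled WT, which held for 10.6% of all genes. The sign was positive for 49.5% of all genes, whose median difference was -0.00281. The libraries of a group are not said to come from separate animals, so the spread behind each p-value is that between these samples and may be technical.

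The reads per library numbered 12641850 to 15890630 where labelled KO and 9794480 to 12122575 where labelled WT, so depth went with the label. Nr1d1, which encodes REV-ERBα, had a higher mean in the KO-labelled libraries (155 ± 13.9 against 86.2 ± 18.9 TPM, mean ± SD). Its difference of 0.86 did not pass the threshold (limma adjusted p = 0.1295). No loss of the transcript was seen, the gene or exons deleted are not given, and each direction follows the labels as given. Markers of T cells were present in every library: the T cell receptor component Cd3e stood at 190.4 ± 29.5 against 257 ± 57.0 TPM and Foxp3, the transcription factor of Tregs, at 201 ± 32.1 against 568 ± 107.8 TPM. Of the 10 T cell and Treg markers, 10 had a difference below 0 and 6 an unadjusted p under 0.05 (7.86% of all genes were lower by that measure), with none past the threshold in limma. Ctla4 stood at 2091 against 2743 TPM and Cd2 at 783 against 859 TPM, and their summed level was 4475 to 5063 TPM against 5876 to 6508 TPM. In bulk samples, fewer cells of a type and less RNA per cell cannot be told apart.

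Markers of the epithelium other than goblet genes were also higher in the KO-labelled libraries. All 17 of that list, among them the keratins Krt19 and Krt8 and the adhesion molecule Epcam, had a difference above 0 (median 0.92). The highest, Krt19 and the galectin Lgals4, stood at 791 against 384 TPM and 716 against 386 TPM. None passed the threshold with limma, 14 had an unadjusted p under 0.05 (7.8% of all genes were higher by that measure), and in 13 every KO-labelled library lay above every WT-labelled one (10.6% of all genes). Their summed level ranged from 2539 to 4877 TPM in the KO-labelled libraries and from 1388 to 2285 TPM in the WT-labelled ones, and no marker of the list was at 0 in any library. The mean log2 level of these 17 markers was 6.77, 7.32 and 6.39 in KO 1, KO 2 and KO 3 and 6.33, 5.51 and 5.92 in WT 1, WT 2 and WT 3. Each gene below is therefore also given relative to this mean in the same library, on the log2 scale, and the part of epithelial RNA in the differences was otherwise not tested.

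**Figure D1:**
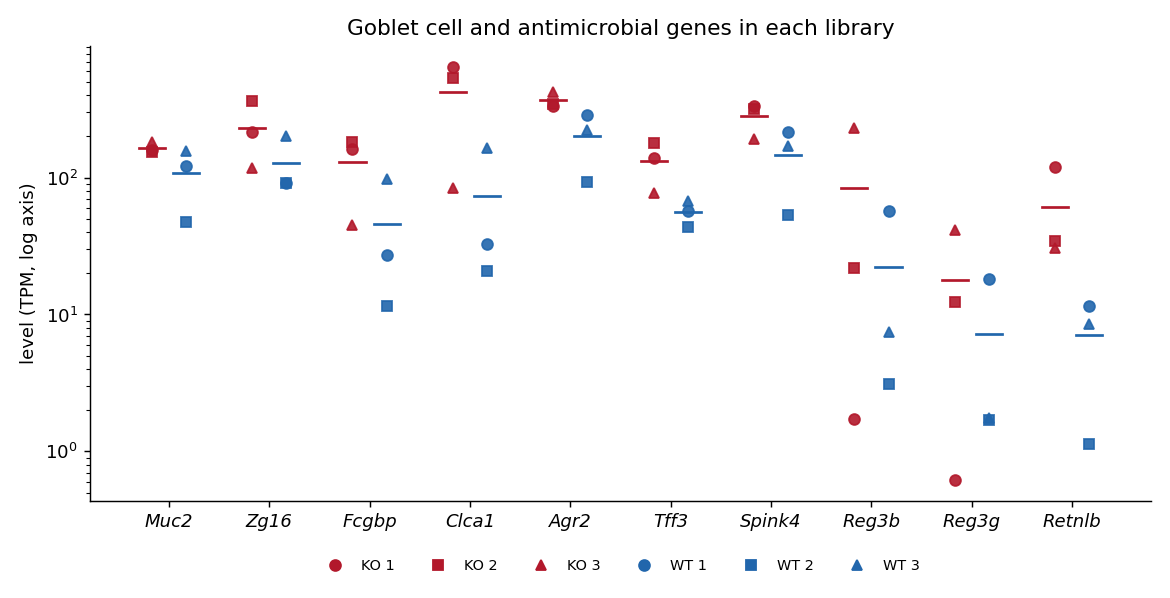
Level of each gene (TPM, log axis) in the 3 KO-labelled libraries (red) and the 3 labelled WT (blue), with the marker shape giving the replicate number and the line the group mean. Agr2, Tff3 and Retnlb do not overlap between the groups, while Reg3b and Reg3g overlap, from 1.73 to 229 TPM and from 0.618 to 41.1 TPM over the 6 libraries.

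Muc2 (NM_023566, mm10 chromosome 7, 141690340 to 141754694, plus strand), the gel-forming mucin of the colon, was measured at 159.5, 153 and 182 TPM in KO 1, KO 2 and KO 3. In WT 1, WT 2 and WT 3 it stood at 121, 47.5 and 157 TPM. The KO-labelled libraries were close together, the one labelled WT 2 was low, and the groups overlapped through WT 3. The log2 difference was 0.76 (SE 0.38, limma adjusted p = 0.383; exact permutation p = 0.2), and 0.25 without WT 2. Relative to the epithelial markers it was -0.15, with overlapping groups (exact permutation p = 0.7).

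Fcgbp (NM_001122603, chromosome 7, 28071236 to 28120864, plus strand) encodes a large protein of the mucus gel that binds to MUC2. Its level was 163, 182 and 45.3 TPM in the KO-labelled libraries and 27.4, 11.6 and 98.3 TPM in the WT-labelled ones. KO 1 and KO 2 were high, KO 3 lay below WT 3, and the groups overlapped. The log2 difference was 1.77 (SE 0.77, limma adjusted p = 0.324), and 1.07 without WT 2. Relative to the epithelial markers it was 0.86 (exact permutation p = 0.4), 0.37 without WT 2 and 1.66 without WT 3.

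Clca1 (NM_017474, chromosome 3, 145004537 to 145032776, minus strand), a secreted metalloprotease that is abundant in goblet cell mucus, had the highest mean of the 10 genes in the KO-labelled libraries. It was measured at 646, 529.7 and 84.1 TPM there, against 32.9, 20.7 and 165 TPM in the WT-labelled libraries. As for Fcgbp, KO 1 and KO 2 stood apart and WT 3 lay above KO 3. The difference of 2.63 (SE 0.92) had an unadjusted p of 0.022 and a limma adjusted p of 0.249. Relative to the epithelial markers it was 1.73, again with overlap (exact permutation p = 0.2).

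Zg16 (NM_026918, chromosome 7, 127050156 to 127051977, minus strand) encodes a lectin-like protein that binds Gram-positive bacteria in the mucus. It stood at 215, 361 and 117 TPM in the KO-labelled libraries and 90.9, 91.8 and 200.2 TPM in the WT-labelled ones. The order of the 6 libraries was nearly that of Clca1, with KO 2 first and WT 3 above KO 3. The difference was 0.81 (SE 0.44, limma adjusted p = 0.406), 0.41 without KO 2 and 1.23 without KO 3, and -0.099 relative to the epithelial markers.

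Agr2 (NM_011783, chromosome 12, 35992925 to 36004081, plus strand), a disulfide isomerase of the endoplasmic reticulum needed for MUC2 production, was among the 3 of the 10 genes that varied least within a label. Its level was 335, 342 and 424 TPM in the KO-labelled libraries and 288, 93.3 and 222 TPM in the WT-labelled ones. Every library labelled KO was above every library labelled WT, though WT 1 came near KO 1. The difference was 1.00 (SE 0.37), with a limma adjusted p of 0.266 and an exact permutation p of 0.1, the smallest that 3 against 3 libraries can give. Without WT 2 it was 0.52. Relative to the epithelial markers the groups overlapped, at a difference of 0.094.

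Among the small secreted peptides, Tff3 (NM_011575, chromosome 17, 31125306 to 31129611, minus strand) encodes the intestinal trefoil factor, which takes part in the repair of the mucosa. It stood at 139, 180.0 and 77.0 TPM in the KO-labelled libraries and 56.7, 43.4 and 67.7 TPM in the WT-labelled ones. The groups did not overlap, and the gap between KO 3 and WT 3 was small. Its difference of 1.16 (SE 0.30, unadjusted p = 0.00496, limma adjusted p = 0.176) came to 0.25 relative to the epithelial markers, where the groups overlapped.

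Spink4 (NM_011463, chromosome 4, 40920056 to 40931395, plus strand), a Kazal-type protease inhibitor made by goblet cells, was measured at 331, 317 and 189.8 TPM in the KO-labelled libraries. In the WT-labelled ones it stood at 215, 53.1 and 169.9 TPM. WT 2 was low and WT 1 exceeded KO 3, so the groups overlapped (difference 1.11, SE 0.48, limma adjusted p = 0.323). Without WT 2 the difference was 0.50.

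Retnlb (NM_023881, chromosome 16, 48816856 to 48818892, plus strand) had the smallest p of the 10 genes. Its product RELMβ is a secreted protein of goblet cells that acts on bacteria and in responses to worms. It was measured at 119, 34.2 and 30.4 TPM in KO 1, KO 2 and KO 3 and at 11.5, 1.12 and 8.51 TPM in WT 1, WT 2 and WT 3. All KO-labelled libraries lay above all labelled WT, and KO 1 stood far above the other two of its group. In recovered reads this was 696, 219 and 221 against 52, 6 and 44. The difference was 3.01 (SE 0.73), with an unadjusted p of 0.00351, a limma adjusted p of 0.162 and an exact permutation p of 0.1. It was the member whose groups stayed apart relative to the epithelial markers, at 2.10 (exact permutation p = 0.1), a separation seen in this direction in 0.0833% of all genes. The subtracted mean was itself higher in every library labelled KO, by 0.91 between the groups, which lowers the difference of every gene. The share of all genes was 10.6% before the subtraction, so the share after it does not say how rare the separation of Retnlb is.

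Reg3b (NM_011036, chromosome 6, 78370885 to 78373466, plus strand) and Reg3g (NM_011260, chromosome 6, 78466269 to 78468874, minus strand) encode secreted C-type lectins; REG3γ kills Gram-positive bacteria. Their rows lie 92802 bases apart on opposite strands. The 250 bases before each start are shown because the pair had the same order of levels over the 6 libraries. The sequences are from RefSeq (GRCm38.p6), 5′ to 3′ on the strand of the gene, at chr6:78370635-78370884 for Reg3b and chr6:78468875-78469124 for Reg3g. Capitals mark the matches to TATAAA on either strand and to TTCNNNGAA, the core of STAT sites.
Reg3b: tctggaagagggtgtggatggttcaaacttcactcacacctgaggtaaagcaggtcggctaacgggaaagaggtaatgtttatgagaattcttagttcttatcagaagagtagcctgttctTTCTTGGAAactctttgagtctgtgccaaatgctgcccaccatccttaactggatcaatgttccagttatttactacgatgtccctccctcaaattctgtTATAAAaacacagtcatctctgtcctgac
Reg3g: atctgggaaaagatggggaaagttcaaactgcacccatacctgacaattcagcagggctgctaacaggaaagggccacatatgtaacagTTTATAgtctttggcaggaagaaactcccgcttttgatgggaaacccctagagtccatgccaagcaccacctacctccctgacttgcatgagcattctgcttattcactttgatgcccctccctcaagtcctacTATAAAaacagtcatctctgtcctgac
An alignment of the 2 windows held 173 identical bases (69.2%), and the last 20 bases before the start (acagtcatctctgtcctgac) were the same in both. The RefSeq promoter table held 5 of the 10 members (also Muc2, Fcgbp and Agr2), and every other pair of these shared runs of 7 to 9 bases and 50.8 to 58.0% of bases. TATAAA was found in 3 of the 5 windows and in 12.3% of all 32536 promoter windows of that length, TTCNNNGAA in Reg3b and in 7.04%. The same core with 4 bases in the middle in place of 3 was in none of the 5 and in 5.89% of all windows. CAGCTG, an E-box of the kind bound by the goblet cell factor ATOH1, was in Muc2 and Fcgbp and in 13.1%. AGGTCA, the half-site in REV-ERB binding sites, was in none of the 5 and in 14.0% of all windows. A match is a description of letters in this window, and no match says only that they are not there. The bases just after the start were found in a transcript of another annotation (GENCODE) for Reg3b, Muc2 and Agr2, but not for Reg3g and Fcgbp. Positions in the windows of Reg3g and Fcgbp therefore rest on the RefSeq start alone.

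The levels of Reg3b were 1.73, 21.8 and 229 TPM in the KO-labelled libraries and 56.6, 3.10 and 7.46 TPM in the WT-labelled ones. KO 3 was highest, WT 1 second and KO 1 lowest of all 6, so the extremes of the whole series lay within 1 group. Reg3g followed with 0.618, 12.2 and 41.1 TPM in the KO-labelled libraries and 18.2, 1.69 and 1.74 TPM in the WT-labelled ones. The lowest of these values rest on few reads, with 4 reads of Reg3g and 11 of Reg3b in KO 1 and 10 of Reg3g in each of WT 2 and WT 3. The difference of Reg3b was 0.95 (SE 1.56, limma adjusted p = 0.797) and that of Reg3g 0.89 (SE 1.20, limma adjusted p = 0.747), both smaller than their errors. Without the library labelled KO 3 they turned to -0.67 and -0.17.

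**Figure D2:**
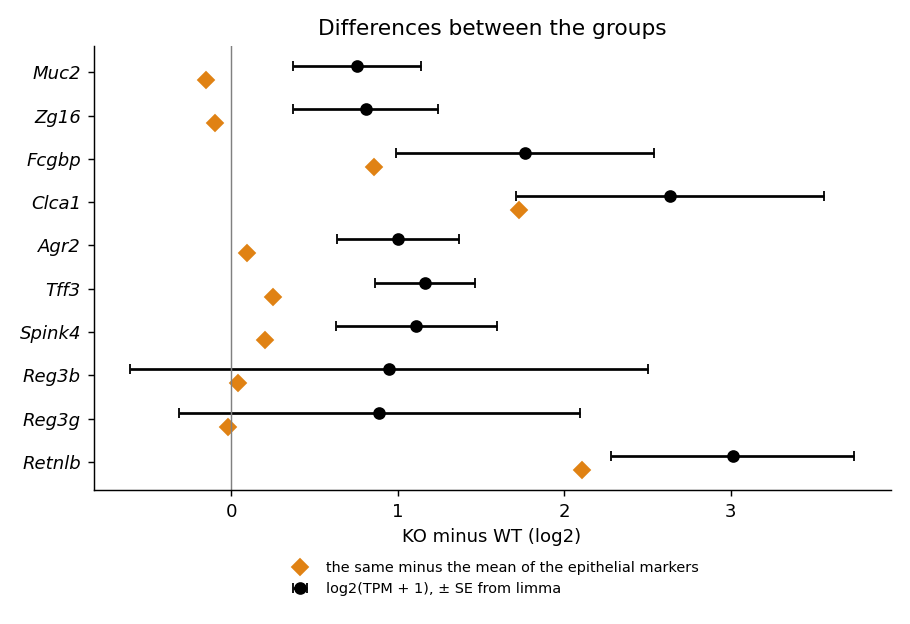
Difference between the groups for each gene, labelled KO minus labelled WT. Black points show log2(TPM + 1) with the SE from limma, and orange diamonds the same difference after the mean of the 17 epithelial markers was subtracted in each library; the diamonds of Clca1 and Retnlb lie farthest to the right.

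After subtraction of the epithelial mean, the median difference of the 10 genes went from 1.06 to 0.15, with 7 of 10 above 0. Muc2, Zg16 and Reg3g were below 0, Agr2, Tff3, Spink4 and Reg3b between 0.041 and 0.25, Fcgbp at 0.86, Clca1 at 1.73 and Retnlb at 2.10. The smallest exact permutation p over the 10 was 0.1, the limit of the design. In a limma fit with the epithelial mean as a covariate the median was 0.29 (0.0248 for all genes tested), with 8 of 10 genes above 0 and none with an unadjusted p under 0.05. The covariate was higher in every KO-labelled library than in every WT-labelled one. With 6 libraries this fit can hardly separate it from the label, so the absence of small p-values decides nothing. In that fit Muc2 stood at 0.26, Fcgbp at 0.17, Clca1 at 0.99, Agr2 at 0.39, Tff3 at 0.33 and Retnlb at 1.82. The median also depended on the library labelled WT 2, in which 7 of the 10 genes had their lowest level: it was 0.57 without that library, and -0.13 relative to the epithelial markers. Over the settings tried, between 0 and 8 members had an unadjusted p under 0.05. The share of all genes by that measure was counted in the main fit only, so these counts cannot be read against a background.

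The genes differed in how much they varied among libraries of 1 label. The median SD within groups was 1.03 on the log2 scale for the 10 genes, 0.451 for the 17 epithelial markers and 0.22 for all genes tested. Reg3b (2.66) and Reg3g (2.04) varied most, followed by Clca1 (1.58), Fcgbp (1.32) and Retnlb (1.24). Tff3 (0.494), Agr2 (0.613) and Muc2 (0.64) varied least of the 10, though at least 88.9% of all genes tested varied less than each of these 3. The highest library over all 6 exceeded the lowest 3.82-fold for Muc2, 31.2-fold for Clca1, 106-fold for Retnlb and 132-fold for Reg3b.

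By mean level (TPM, per length), the order in the KO-labelled libraries was Clca1, Agr2, Spink4, Zg16, Muc2, Tff3, Fcgbp, Reg3b, Retnlb and Reg3g, from 419.9 ± 297 down to 18.0 ± 20.9 TPM. In the WT-labelled ones it was Agr2, Spink4, Zg16, Muc2, Clca1, Tff3, Fcgbp, Reg3b, Reg3g and Retnlb, from 201 ± 99.1 to 7.05 ± 5.35 TPM. Neighbours in either order differed by less than the larger of their SDs, except Agr2 and Spink4 in the KO-labelled libraries (367 ± 49.4 and 279 ± 77.9 TPM). The closest pair there was Tff3 and Fcgbp (132 ± 51.8 and 130.2 ± 74.2 TPM). The summed level was 2110, 2132 and 1418 TPM in KO 1, 2 and 3, and 918, 367 and 1098 TPM in WT 1, 2 and 3. This was 0.221 to 0.331% of the deposited TPM in the KO-labelled libraries and 0.0579 to 0.173% in the WT-labelled ones.

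**Figure D3:**
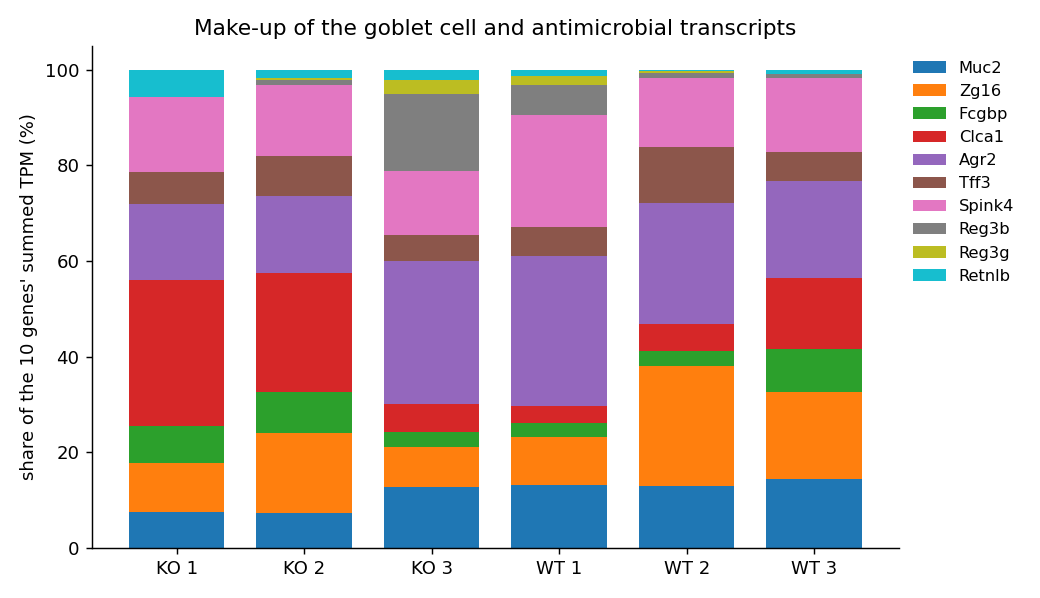
Share of each gene in the summed TPM of the 10 genes (%), 1 bar per library. Clca1 takes 30.6% and 24.8% in KO 1 and KO 2 and at most 15.0% in the other libraries, and Reg3b takes 16.1% in KO 3 and 6.16% in WT 1.

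The make-up of the sum split the libraries in a way that crossed the labels. Clca1 made up 30.6 and 24.8% of it in KO 1 and KO 2, 15.0% in WT 3, and 5.93, 3.58 and 5.64% in KO 3, WT 1 and WT 2. Agr2 was the largest share in all libraries but KO 1 and KO 2, with 29.9% in KO 3, 31.4% in WT 1, 25.4% in WT 2 and 20.3% in WT 3. The share of Muc2 itself was 7.56 and 7.16% in KO 1 and KO 2 and 12.8 to 14.3% in the other 4 libraries.

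Set against Muc2 in the same library, the gene level that a goblet cell marker gives, Agr2 was the steadiest. Its ratio to Muc2 was 2.10, 2.24 and 2.33 in the KO-labelled libraries and 2.38, 1.96 and 1.42 in the WT-labelled ones. Clca1 stood at 4.05, 3.47 and 0.463 times Muc2 in the KO-labelled libraries and 0.272, 0.437 and 1.05 times in the WT-labelled ones. Fcgbp had the same pattern, at 1.02, 1.19 and 0.25 against 0.226, 0.243 and 0.626. Retnlb was at 0.748, 0.224 and 0.167 times Muc2 against 0.0952, 0.0237 and 0.0542, without overlap. This ratio rescales values that were already apart, and the share of all genes apart by it was not counted. Reg3b ranged from 0.0109 in KO 1 to 1.26 in KO 3.

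**Figure D4:**
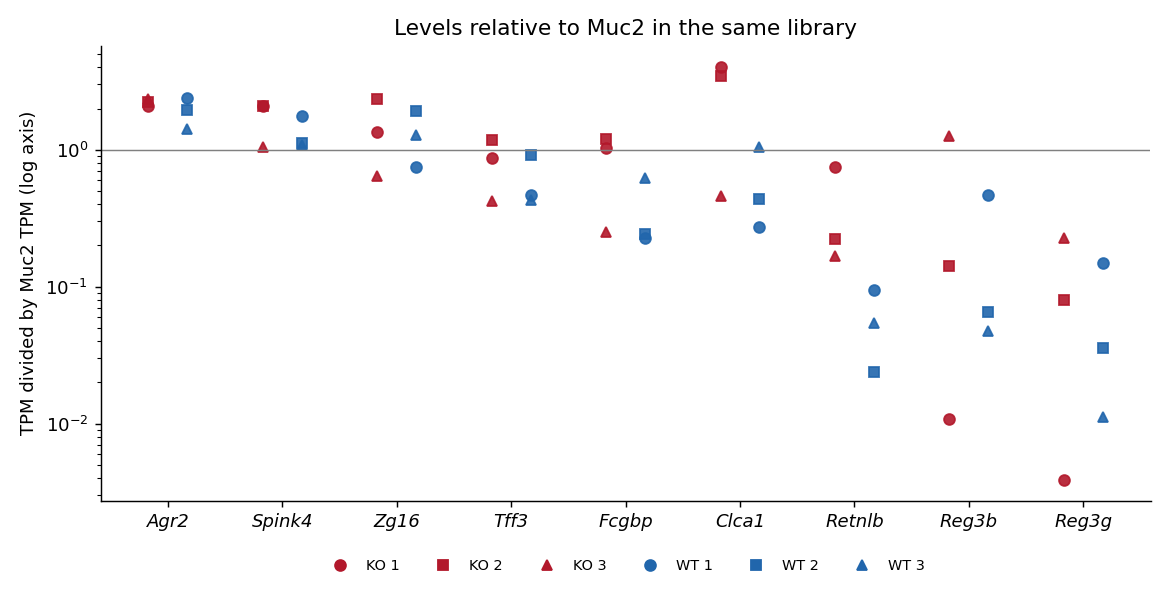
Level of 9 genes divided by that of Muc2 in the same library (ratio of TPM, log axis; red, labelled KO; blue, labelled WT; shape, replicate number). Agr2 stays between 1.42 and 2.38, Clca1 is above 3 in KO 1 and KO 2 only, and Reg3b and Reg3g are highest in KO 3 and WT 1.

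Over the 6 libraries, the pairs of genes whose log2 levels were most alike were Fcgbp and Clca1 (Pearson's r 0.98, Spearman's rho 0.94), Reg3b and Reg3g (0.98 and 1), Clca1 and Tff3 (0.94 and 0.89) and Muc2 and Agr2 (0.93 and 0.71). The least alike were Zg16 and Reg3b (-0.25 and -0.31). These are descriptions over 6 points, and all genes of a point share its library, its depth and its level of epithelial markers. Of 10291 other genes with a mean of at least 5 TPM, the 8 most like the mean log2 level of the 10 genes were Cpped1, Ttc39a, Ralb, Galnt3, Gatsl3, Gmds, Cyp4f40 and Psmd1, with Pearson's r from 0.988 to 0.996. Galnt3 encodes an enzyme that starts mucin-type O-glycans and stood at 8.56 against 4.06 TPM. Gmds encodes the first enzyme of GDP-fucose synthesis and stood at 66.35 against 42.3 TPM. These 2 were picked from the 8 for their functions. The rest stood at 19.2 against 13.95 TPM (Cpped1), 16.7 against 8.03 (Ttc39a), 24.7 against 18.9 (Ralb), 25.9 against 22.0 (Gatsl3), 12.9 against 6.91 (Cyp4f40) and 59.2 against 49.7 (Psmd1). The 8 are the highest of 10291 values of r over 6 points, so they do not show a shared programme. For comparison, r was 0.94 for Epcam, 0.84 for Krt8 and -0.87 for Foxp3.

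Genes that direct goblet cell fate and mucin assembly ranged widely in level, and most had a higher mean in the KO-labelled libraries. This list was not set against the epithelial markers, whose mean log2 level was higher by 0.91. Of 30 genes listed, 29 were tested, 27 had a difference above 0 (median 0.50), none passed the threshold with limma, and 9 were higher and 0 lower at an unadjusted p under 0.05 (7.8 and 7.86% of all genes). The members of highest level are not specific to goblet cells and had differences of -0.075 to 0.16: the secretory factor Xbp1 (208 against 214 TPM), the vesicle protein Vamp8 (153 against 148 TPM), the stress sensor Ern1 (114 against 116 TPM) and the transcription factor Klf4 (113 against 96.1 TPM). Among genes chosen after their values were seen, Spdef, a transcription factor of goblet cell maturation, stood at 11.3, 8.84 and 11.0 TPM in the KO-labelled libraries and 5.81, 3.84 and 5.51 TPM in the WT-labelled ones. Its groups did not overlap (difference 0.92, SE 0.20, limma adjusted p = 0.146). Atoh1, which commits cells to the secretory lineage, stood at 3.17, 5.88 and 5.50 TPM against 5.71, 0.743 and 4.73 TPM and overlapped.

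Several relatives of the 10 genes typical of other organs were listed at 0. Of 33 relatives looked for, 28 had a row and 11 were tested. The gel-forming mucins of stomach and airway (Muc5ac, Muc5b, Muc6 and Muc19), the gastric trefoil peptide Tff2, and Reg1, Reg3d and Spink5 were listed at 0 in all 6 libraries. Of the 11 tested, 9 had a difference above 0 (median 0.67), 5 were higher and 0 lower at an unadjusted p under 0.05 (7.8 and 7.86% of all genes), and none passed the threshold with limma. Muc13, a membrane mucin of the gut, stood at 169 against 82.5 TPM with groups that did not overlap, and so did Clca3b, a relative of Clca1, at 45.0 against 27.9 TPM. Reg4, an epithelial lectin, overlapped at 67.4 against 51.4 TPM, as did Tff1 at 23.5 against 18.1 TPM.

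Of 20 other antimicrobial and barrier genes, 15 were tested, 13 had a difference above 0 (median 1.00), and 5 were higher and 0 lower at an unadjusted p under 0.05 (7.8 and 7.86% of all genes), with none past the threshold. Lypd8, which keeps flagellated bacteria off the colon epithelium, stood at 1622 against 917 TPM, and Pigr, the transporter of IgA and IgM, at 519 against 260.2 TPM. Neither overlapped between the groups. Camp, Defb1 and Bpi were listed at 0 throughout. Ang4, an antimicrobial ribonuclease of Paneth and goblet cells, was measured at 215, 62.2 and 3.57 TPM in the KO-labelled libraries and 6.64, 2.62 and 33.0 TPM in the WT-labelled ones. KO 1, KO 2 and WT 3 were its 3 highest libraries, as for Clca1, Fcgbp and Zg16. The Paneth cell defensins Defa30 and Defa17 were at 0, and Pla2g2a, another Paneth cell product, stood at 3.23 to 6.68 TPM against 0 to 4.19 TPM. Of 8 Paneth cell markers, 3 were tested (Ang4, Pla2g2a and Lyz1), 2 had a difference above 0 (49.5% of all genes) and 0 had an unadjusted p under 0.05. Lyz1, which is outside the rule for names, went the other way at 3.07 against 3.36 TPM.

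Markers of absorptive colonocytes overlapped between the groups. Of 10, 8 had a difference above 0 (median 0.28), 0 had an unadjusted p under 0.05 and 0 were free of overlap, with 0 past the threshold in limma. Of all genes, 7.8% were higher and 7.86% lower at an unadjusted p under 0.05, and 10.6% had every KO-labelled library higher. Car1, a carbonic anhydrase, stood at 983 against 772 TPM and Guca2a, the precursor of guanylin, at 296 against 212 TPM. Whether the goblet genes differed more than the absorptive genes was not tested.

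The cytokines known to induce these genes come in part from T cells, and several were higher in the KO-labelled libraries. Of 23 cytokines, receptors and signalling genes listed, 20 were tested, 15 had a difference above 0 (median 0.31), 7 were higher and 1 lower at an unadjusted p under 0.05 (7.8 and 7.86% of all genes), and none passed the threshold with limma. Il17a, a cytokine that acts with IL-22 on epithelial defence, stood at 34.1, 42.3 and 48.3 TPM in the KO-labelled libraries and 24.1, 20.1 and 14.8 TPM in the WT-labelled ones, without overlap (difference 1.055, SE 0.20, limma adjusted p = 0.1295). Il13 was measured at 36.5, 75.5 and 83.8 TPM against 9.18, 29.2 and 50.0 TPM, with overlap through KO 1 and WT 3 (1.32, SE 0.56, adjusted p = 0.316 in limma), and a difference of 0.67 without WT 1. Il4 stood at 4.70, 17.1 and 26.2 TPM against 1.58, 1.34 and 4.84 TPM, with KO 1 just below WT 3 (2.10, SE 0.59, limma adjusted p = 0.195).

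Il22 overlapped between the labels. It stood at 159, 172 and 45.3 TPM in the KO-labelled libraries and 176, 133 and 63.2 TPM in the WT-labelled ones, with KO 3 lowest (difference -0.083, SE 0.55, limma adjusted p = 0.954). Whether the levels of the 10 genes follow those of the cytokines was not tested. The receptor chain Il22ra1, which epithelial cells carry and T cells lack, was chosen after its value was seen and was at 2.34 against 1.48 TPM. Of the genes of highest level in the list, Stat3 stood at 489 against 472 TPM and Nfkbiz at 233 against 222 TPM, both with overlap. Areg, a repair factor, stood at 357 against 261 TPM, and the IL-4 receptor Il4ra at 211 against 257 TPM.

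**Figure D5:**
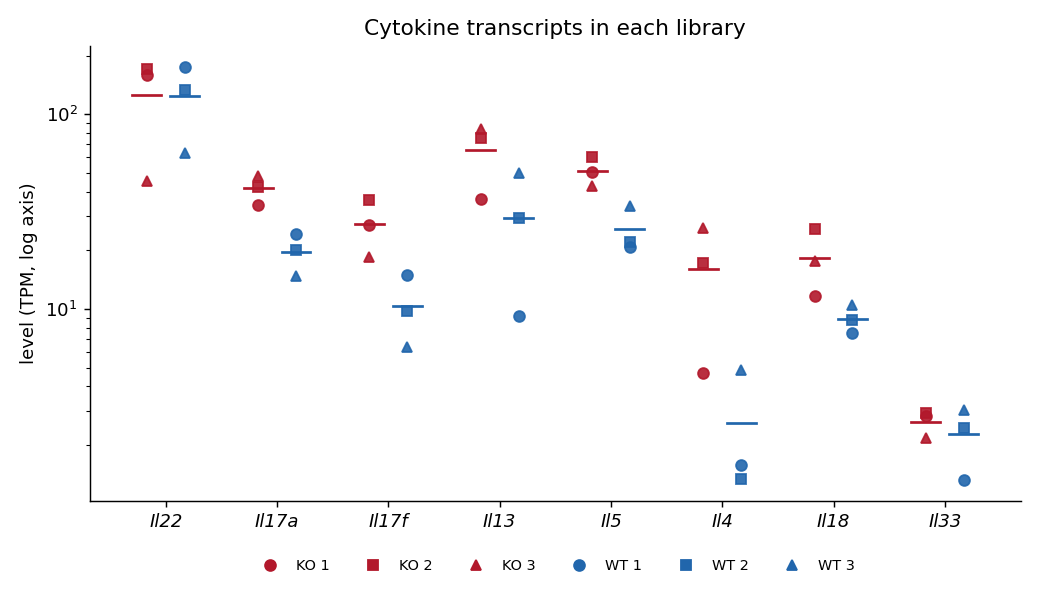
Level of 8 cytokine transcripts (TPM, log axis; red, labelled KO; blue, labelled WT; shape, replicate number; line, group mean). Il17a, Il17f, Il5 and Il18 do not overlap between the groups, and Il22 is lowest in KO 3 (45.3 TPM) and WT 3 (63.2 TPM). Of the 20 genes tested in the list of cytokines and receptors, these 4 have every KO-labelled library higher (10.6% of all genes). Il17f, Il5 and Il18 are outside the rule for names.

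Markers of several other cell types were also looked at. For their counts of differences above 0, the share over all genes was 49.5%. Of 7 neutrophil genes, 5 were tested, 4 had a difference above 0 (median 1.35) and 3 were higher at an unadjusted p under 0.05 (7.8% of all genes), with none past the threshold in limma. S100a8, chosen after its values were seen, stood at 1.22, 5.57 and 8.57 TPM in the KO-labelled libraries and was listed at 0 in the WT-labelled ones. It met the filter for testing only through the KO-labelled libraries, so its place among the 3 genes called adds no support. Retnlg, a relative of Retnlb made by neutrophils and chosen after its values were seen, was highest in KO 3 (8.19 TPM, against 0 to 2.51 TPM elsewhere). S100a9 was also highest there, at 19.4 TPM, and Mmp9 stood at 27.7 against 29.7 TPM. Ly6g and Csf3r, also chosen after their values were seen, were not highest in KO 3. Ly6g, which was not tested, stood at 6.32, 5.29 and 0.414 TPM in KO 1, KO 2 and KO 3. In the WT-labelled libraries it stood at 0.565 to 0.835 TPM, above its level in KO 3. Csf3r was highest in KO 2. Of 8 myeloid markers, 7 had a difference above 0 (median 0.16) and all overlapped, with Lyz2 at 334 against 323 TPM and C1qb at 222 against 202 TPM. All 8 fibroblast and smooth muscle markers had a difference above 0 (median 0.36). In 1 of them every KO-labelled library was higher (10.6% of all genes), and 0 were higher at an unadjusted p under 0.05 (7.8% of all genes). The highest were Dcn at 168 against 143 TPM and Col3a1 at 88.0 against 89.0 TPM. The smooth muscle genes Acta2, Tagln and Myh11, chosen after their values were seen, had differences of 0.95, 0.88 and 0.98 (SE 0.43, 0.41 and 0.58). Each overlapped between the groups, and Myh11 was high in KO 2 only (8.80 TPM, against 0.514 to 1.27 TPM elsewhere). Of 5 B and plasma cell markers, 3 had a difference above 0 (median 0.084) and all overlapped, with Jchain at 1239 against 1160 TPM and Mzb1 at 42.7 against 40.4 TPM. The part of these cells in the levels of the 10 genes was not tested.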

How the data were processed

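RNA-seq libraries were made from 1.3 µg of total RNA with a stranded poly(A) kit, per the labels' protocols. The authors deposited TPM values, each row a RefSeq transcript by the file headers. The submitters' processing notes name FastQC 0.11.8, Trim Galore 0.4.4, STAR 2.5.3a, HOMER 4.9.1 and mm10 as the build, and the sources used here do not say whether counting used strand. No member row overlaps another gene. Length in bases, an other quantity, is also in the deposited table. TPM multiplied by length was a whole multiple of a step in each library (at least 99.99% of values up to 500 reads within 0.1), which gave the reads. Of values of 1 to 8 reads, 87.6 to 89.7% were even, as when both ends of a fragment are counted, so independent fragments are fewer than reads.

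Differences are labelled KO minus labelled WT on log2(TPM + 1), from limma 3.58.1 with a variance trend in R 4.3.3 (Python 3.11.15 for the rest), tested on simulated data. Exact two-sided permutation tests of 3 against 3 cannot go below 0.1. Members and lists were chosen with earlier results of these data known. The rule for names took all 10 members, Foxp3, Cd3e, Nr1d1, Epcam, Krt8, Il22, Il17a, Il13 and Il4, the 4 (or, for marker lists, 2) of highest mean TPM in each list, and the 8 most like genes; 1 gene under this rule is not reported here. Replicate numbers were not taken to pair the libraries, since the sources used here do not say that they mark shared animals or days.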

Additional observations from a re-analysis of the deposited data

How the results depend on the processing

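The 10 genes stayed without a call under all 14 alternatives, and limma called 0 genes of all tested except without the libraries labelled WT 1 (7) or WT 2 (1), a range of 0 to 7 on leaving out 1 library. The median difference of the 10 genes ran from 0.57 to 1.58 when 1 library was left out, and stood at 1.06 with the replicate block, which gave 0 calls. At an unadjusted p under 0.05 the block gave 6 members, against 4 in the main fit, and the share of all genes in the block fit was not counted. Same-numbered libraries had correlations of their deviations of 0.0037, -0.22 and -0.041. These show no pairing, but with 3 libraries per group they cannot exclude shared days or animals. Voom on recovered reads called 0 members (median 1.20). With the epithelial covariate Zg16 (-0.0686), Spink4 (-0.21), Epcam (-0.0503) and Cd3e (0.0799) changed sign. On leaving out 1 library the differences ran from -0.67 to 2.52 for Reg3b, -0.17 to 2.18 for Reg3g and -0.50 to 0.53 for Il22. Relative to the epithelial markers the same ranges were -0.45 to 0.20 for Muc2, -0.49 to 0.28 for Zg16, -0.23 to 0.39 for Agr2, -0.20 to 0.43 for Spink4, -1.80 to 1.59 for Reg3b and -1.30 to 1.25 for Reg3g. With Epcam as the reference Muc2 (0.0103), Zg16 (0.0626) and Reg3g (0.15) changed sign, as did Reg3b with Krt8 (-0.0517) or a pseudocount of 0.1 (-0.0136). The cause was not tested. Fcgbp, Clca1, Tff3 and Retnlb kept a positive sign in every setting, raw and relative, and Foxp3 passed the threshold without WT 1 (limma adjusted p = 0.0399). Depth limits mainly Reg3g, Reg3b and Retnlb in the libraries where they had 4 to 18 reads.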

Other observations

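Enteroendocrine cells, the hormone-secreting cells of the epithelium, come from the same secretory lineage as goblet cells, and their markers were uneven between libraries. Chga, Chgb, Pyy and Insl5 were listed at 0 in the library labelled KO 3, and Pyy and Insl5 also in WT 2, while Gcg (1.93 TPM) and Tph1 (1.25 TPM) were present in KO 3. Chgb, a granin, stood at 21.2 and 29.6 TPM in KO 1 and KO 2 and 41.6, 6.83 and 12.8 TPM in WT 1, 2 and 3. Pcsk1, a prohormone convertase, stood at 43.8, 18.4 and 16.2 TPM against 20.3, 24.0 and 18.7 TPM. Of the 7 enteroendocrine genes tested, 4 had a difference above 0, none had an unadjusted p under 0.05 in limma, and 0 passed the threshold. By the unadjusted measure 7.8% of all genes were higher and 7.86% lower. Of the tuft cell markers, Alox5ap, which myeloid cells also express, stood at 15.8 against 13.9 TPM. Dclk1 stood at 0.576 against 0.896 TPM, Trpm5 at 0.219 against 0.122 TPM and Gnat3 at 0. Of 9 stem and crypt base markers, 6 were tested and 5 of these had a difference above 0 (median 0.32). At an unadjusted p under 0.05, 1 was higher (7.8% of all genes), and 0 passed the threshold in limma. Kit stood at 23.7 against 20.6 TPM. Lgr5, the stem cell receptor, stood at 0.195 against 0.227 TPM and Axin2 had a difference of -0.13. The 1 gene with an unadjusted p under 0.05 was Slc12a2, a chloride transporter of crypts, at 20.9 against 12.1 TPM without overlap (difference 0.75, SE 0.235, unadjusted p = 0.0133, limma adjusted p = 0.221). Chga, Pyy, Insl5, Gcg, Tph1, Axin2, Dclk1, Trpm5, Gnat3, Lgr5 and Slc12a2 were chosen after their values were seen.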
